A study of Mus musculus with 6 samples.

Results

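The insulin-like growth factor (IGF) and insulin axis was described here through 10 genes of the 32285 in the count matrix. They were chosen by gene symbol: the ligands Igf1 and Igf2, the long non-coding RNA H19 that neighbours Igf2, the receptors Igf1r, Igf2r and Insr, and the secreted binding proteins Igfbp2, Igfbp3, Igfbp4 and Igfbp5. All 10 symbols matched exactly 1 row each, and none was removed by a filter on low values. The levels are described over 35962 cells of 53362 barcodes, by cell class and by library.

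The series is a single-cell RNA-seq study of the cardiogenic and pharyngeal region of mouse embryos at E10.5 (midgestation), dissected from wild type C57BL/6 embryos. The labels list 3 samples from mothers that received vehicle and 3 from hyperglycemic mothers pretreated with streptozotocin, a toxin that destroys insulin-producing beta cells; all fathers were normoglycemic. The embryos themselves carried no allele or treatment of their own, and the dissected tissue also held mesoderm, ectoderm and endoderm outside the heart. An assay of open chromatin is named in the descriptions, whereas the titles, the kit and the matrix are those of 3-prime RNA libraries. The matrix holds 6 libraries, told apart by a number at the end of each barcode (library 1 to library 6), and no source used here pairs that number with a sample. The libraries are therefore not sorted by maternal treatment anywhere below, streptozotocin was not compared with vehicle, and every value for a library is given without a group.

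IGF1 and IGF2 are secreted growth factors that signal through the tyrosine kinase IGF1R and, for IGF2, also through an isoform of the insulin receptor, both feeding the PI3K-AKT and MAPK pathways. IGF2R, the cation-independent mannose 6-phosphate receptor, binds IGF2 and carries it to lysosomes, and the IGF-binding proteins hold IGFs outside the cell and set how much reaches the receptors. In the mouse, Igf2 is expressed mainly from the paternal copy and H19 and Igf2r mainly from the maternal copy, and IGF2 from the epicardium and endocardium is known as a growth signal for embryonic heart muscle. These counts do not separate the parental copies.

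Igf2 and H19 are neighbours on mouse chromosome 7, and both are read from the minus strand. In GENCODE M21 on GRCm38, the build named in the submitters' processing notes as mm10, H19 spans chr7:142575529-142578143 and Igf2 spans chr7:142650766-142666816, with 72.6 kb between them. Each holds a microRNA precursor, miR-675 in an exon of H19 and miR-483 in an intron of Igf2. Their mature sequences (RefSeq, GRCm38.p6) are shown because the pair is the one that most of the results below turn on; the kit does not count mature microRNAs, so none of the values below is a level of a microRNA. Capitals mark the seed, bases 2 to 8, and the seeds of these 4 sequences all differ.
mmu-miR-675-5p: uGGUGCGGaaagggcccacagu
mmu-miR-675-3p: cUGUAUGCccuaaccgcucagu
mmu-miR-483-5p: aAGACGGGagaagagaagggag
mmu-miR-483-3p: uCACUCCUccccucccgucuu

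Igfbp2 and Igfbp5 are a second neighbouring pair, on chromosome 1. Igfbp2 lies on the plus strand at chr1:72824503-72852474 and Igfbp5 on the minus strand at chr1:72857932-72874884, so that their 3′ ends face each other across 5.5 kb. Their promoters are shown because both genes had their highest levels in surface ectoderm and endoderm, as described below. RefSeq entries (GRCm38.p6), from 250 bases before to 50 bases after the transcript start, were found for 8 of the 10 members, with 12 entries in all; H19 and Insr have none in that table. Capitals mark matches to 3 motifs searched on both strands, of which the first is GGGCGG, known as a GC box. The other two are TATAAA, the core promoter box bound by TBP, and the CCAAT box. Igfbp2 has 2 entries. The first, chr1:72824230-72824529 on the plus strand and printed here, held 3 GC boxes and 18 CpG dinucleotides, and the second, chr1:72825137-72825436, held none of the motifs and 14 CpG dinucleotides. The Igfbp5 window, chr1:72874816-72875115 on the minus strand, held none of the 3 motifs and 10 CpG dinucleotides.
Igfbp2: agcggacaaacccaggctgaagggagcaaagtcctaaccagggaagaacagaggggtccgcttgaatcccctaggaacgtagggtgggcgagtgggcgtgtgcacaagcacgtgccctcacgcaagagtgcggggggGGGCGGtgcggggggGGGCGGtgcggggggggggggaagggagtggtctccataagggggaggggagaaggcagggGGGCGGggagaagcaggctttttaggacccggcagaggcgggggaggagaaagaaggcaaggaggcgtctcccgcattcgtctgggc
Igfbp5: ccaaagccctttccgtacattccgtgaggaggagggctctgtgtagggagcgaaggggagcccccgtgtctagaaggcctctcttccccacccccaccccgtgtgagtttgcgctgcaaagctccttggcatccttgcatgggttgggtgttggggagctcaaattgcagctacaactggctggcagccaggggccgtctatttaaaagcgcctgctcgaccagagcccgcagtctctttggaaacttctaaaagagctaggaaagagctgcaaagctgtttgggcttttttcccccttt
Over all 32851 promoter windows of that length, 35.7% held the first motif, 13.6% the second and 37.4% the third, with a median of 7 CpG dinucleotides. These matches describe the letters only. No motif was tested against the levels.

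The other members lie apart. Igf1 is at chr10:87858265-87937042 (plus strand), Igf1r at chr7:67952827-68233668 (plus), Igf2r at chr17:12682406-12769664 (minus), Insr at chr8:3122061-3279617 (minus), Igfbp3 at chr11:7206086-7213923 (minus) and Igfbp4 at chr11:99041244-99054392 (plus). Genes on the opposite strand overlap Igf1 (Igf1os), Igf2 (Igf2os), Igf2r (Airn), H19 (Gm27483 and Gm27786) and Insr (Gm16180 and Vmn2r-ps88). Whether the counting used strand is not given in the sources used here, so values of these members could include reads of a gene on the other strand.

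Cells were kept with at least 2500 genes and at most 10% mitochondrial UMIs (unique molecular identifiers, 1 per captured RNA molecule). The 6 libraries kept 4903 to 7136 cells each, with median depths of 30533 to 35634 UMIs, and 283 kept cells shared their barcode sequence with a cell of another library. Marker gates placed 26050 cells in a class, left 9362 (26.0%) unplaced and set aside 550 that passed more than 1 gate of equal rank. The gates of crest mesenchyme, cushion mesenchyme and the mesoderm and muscle classes ranked below all others. Among these lower gates, branchiomeric muscle took precedence. A cell that passed gates of both ranks kept the class of the higher rank, so such cells were not set aside. No doublet caller was run. The 14 classes compared held 220 (neuron) to 5775 (crest mesenchyme) cells and are named by their gates. The leading genes by fold were Myl3, Myl2 and Actc1 for cardiomyocytes and Emcn, Cdh5 and Ramp2 for endothelium. They were Upk1b, Upk3b and Wt1 for epicardium and mesothelium, and Igfbp7, Pdlim3 and Papss2 for endocardial cushion mesenchyme. Most of these genes are markers of their own gate, so their lead follows from the gating and is no check of it. Myl3, Myl2, Ramp2, Igfbp7 and Pdlim3 are not on the list that gated their class. The weakest gates were those of the mesoderm, where many cells had the smallest number of markers allowed: 507 of 774 in branchiomeric muscle, 336 of 598 in paraxial mesoderm, 893 of 1665 in the anterior heart field and pharyngeal class and 816 of 1620 in the foregut and posterior heart field class. Branchiomeric muscle cells had a median of 3 of their own markers on and as many of another list. Only 1 marker of the anterior class, Fgf10, was among its 10 leading genes.

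Levels are counts per 1000000 (CPM), the UMIs of a gene over all UMIs summed in the cells of a class, with the exact 95% Poisson interval of the sum. That interval covers counting error only, and cells of 1 library are not replicates, so the spread is given as the lowest, median and highest library. A library entered a class where it had at least 20 of its cells. Because each captured transcript is tagged at its 3′ end, a level does not scale with transcript length, but capture can differ between genes, so no order of levels is read between genes.

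**Figure D1:**
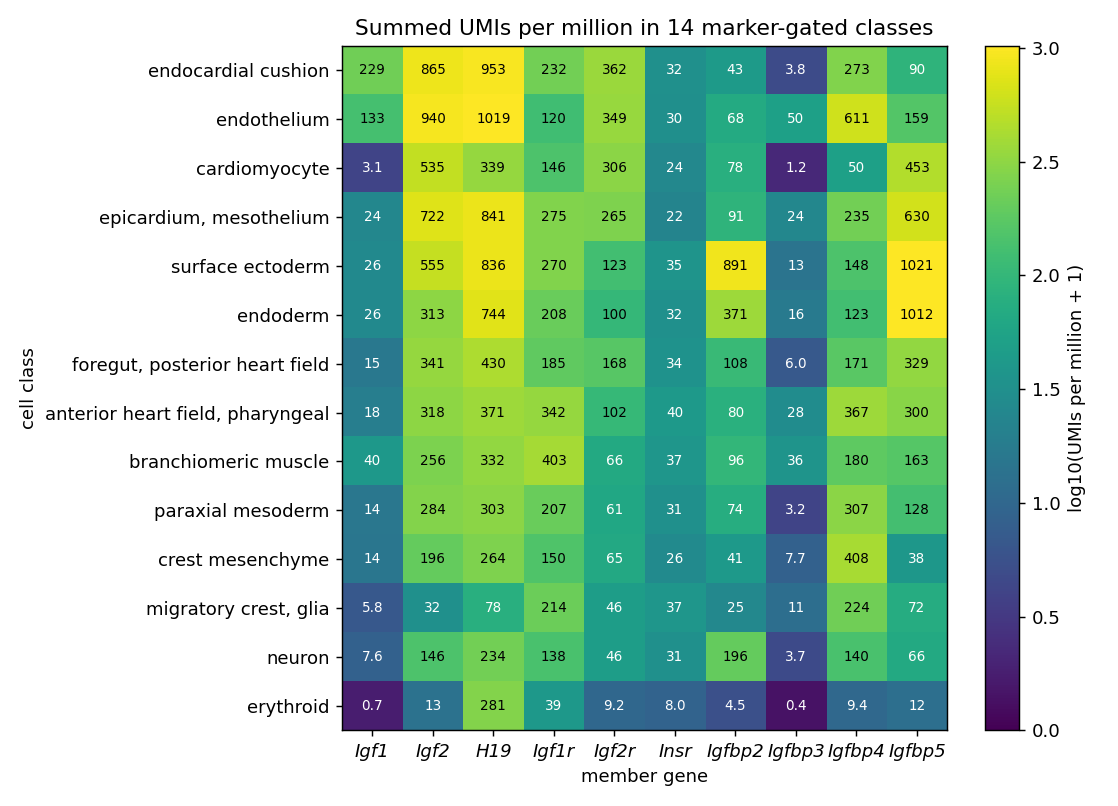
Levels of the 10 members (columns) in the 14 classes (rows), as CPM printed in each cell and as colour on a log10 scale after adding 1. Igf2 and H19 are high in cushion, endothelium and epicardium, Igfbp2 and Igfbp5 in surface ectoderm and endoderm, Igf1 in cushion and endothelium, and erythroid cells, whose total includes globin UMIs, are low for all members except H19.

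The spread between classes was wide for some members and narrow for others. The highest class of a member stood a median of 3.31 times above its median class, against 1.57 times over all 11443 genes that reached 10 CPM in some class. This ratio ran from 1.27 for Insr to 13.7 for Igf1. For 3 of the 10 members (Igf1, Igfbp2 and Igfbp4) no library put the second class above the first, which was also the case for 41.9% of all genes tested. A top class held by all libraries was therefore not a mark of the members. For the others the first 2 classes are given together below.

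Igf2 was highest in endothelium, where its pooled level was 939.6 CPM (95% interval 933 to 946), followed by endocardial cushion mesenchyme at 865 CPM, epicardium and mesothelium at 722 CPM, surface ectoderm at 555 CPM and cardiomyocytes at 535 CPM. In endothelium the libraries had 1254, 1112, 1243, 612, 549.9 and 720.1 CPM for libraries 1 to 6, and in cushion mesenchyme 1001, 1001, 789.9, 708, 741 and 752 CPM. Endothelium was above cushion in 3 of 6 libraries, so their order is not resolved. The middle of the range held the heart field, pharyngeal, endodermal and muscle classes, from 341 CPM in foregut and posterior heart field mesoderm to 256 CPM in branchiomeric muscle. Libraries differed in Igf2 and gave unequal numbers of cells to each class, so a pooled level leans to the libraries with more cells: in foregut and posterior heart field mesoderm the libraries had 683, 589, 487, 281, 243 and 274 CPM, with a median of 384. The order of the 14 classes by median library was the same as the pooled order. Of the 13 steps between neighbours in this order, only that from neuron (146 CPM) to migratory crest and glia (31.8 CPM) separated all library values, over the 5 libraries with enough neurons. Erythroid cells had the lowest pooled Igf2 level of the 14, 12.7 CPM (9.91 to 14.6 CPM over libraries). Globin UMIs take up much of the erythroid total. With hemoglobin, mitochondrial and ribosomal protein genes left out of the total, erythroid Igf2 was at 33.9 CPM (26.5 to 38.8) and migratory crest and glia at 41.6 CPM (18.8 to 134), with overlapping libraries.

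Shares of cells with a UMI are given beside those of erythroid cells, which had the lowest level among the 14 classes for 9 of the 10 members. Erythroid cells were the deepest of the ranked classes, with a median of 65274 UMIs, and rich in globin UMIs, so their share can understate the free RNA in shallower classes and sets no upper limit for it. When every cell was thinned to 5000 UMIs, 4.47% of erythroid cells (exact 95% binomial interval 3.47 to 5.66) still had an Igf2 UMI, against 92.3% of endothelial cells, 92.9% of cushion cells and 87.2% of cardiomyocytes. The share in migratory crest and glia was 9.47% (6.99 to 12.5). That class, with a median depth of 38805 UMIs before thinning, was thus the nearest to the erythroid share. Among 25 hepatocyte-like cells, too few to rank, Igf2 stood at 568 CPM.

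H19 followed Igf2 at the top of the order and departed from it at the bottom. Its level was 1019 CPM in endothelium (838, 1032 and 1176 CPM in the lowest, median and highest library), 953 CPM in cushion mesenchyme, 841 CPM in epicardium and mesothelium, 836 CPM in surface ectoderm and 744 CPM in endoderm. The libraries of these first 4 classes overlapped from each to the next, and all libraries of endoderm lay above all those of the next class, foregut and posterior heart field mesoderm (429.7 CPM). In erythroid cells H19 was at 281 CPM (245, 294 and 342 CPM) of all UMIs. With hemoglobin, mitochondrial and ribosomal protein genes left out of the total it was at 749 CPM (651 to 905), between endoderm at 970.0 CPM and foregut and posterior heart field mesoderm at 552 CPM, whose highest library (832 CPM) was above the lowest erythroid one. After thinning, 70.7% of erythroid cells had an H19 UMI, and 67.1% had H19 without Igf2. The lowest class for H19 was migratory crest and glia at 77.6 CPM.

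The ratio of Igf2 to H19 UMIs therefore differed widely between classes. It was 1.58 in cardiomyocytes, 0.922 in endothelium, 0.908 in cushion mesenchyme, 0.859 in epicardium and mesothelium, 0.665 in surface ectoderm, 0.42 in endoderm and 0.0453 in erythroid cells. Cardiomyocytes had the highest ratio in each of the 6 libraries (1.21 to 1.97) and erythroid cells the lowest in each (0.0311 to 0.0556). Across the 14 classes the log2 levels of Igf2 and H19 had a Pearson r of 0.76, and over the 13 classes without erythroid cells 0.93; the points share libraries and the r is a description.

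Igf1 was restricted more sharply. It was 229 CPM in endocardial cushion mesenchyme (175, 218 and 364 CPM in the lowest, median and highest library) and 133 CPM in endothelium (124, 133 and 147 CPM), and no library values of the 2 classes overlapped. With gates that needed 1 marker fewer, cushion was above endothelium in 5 of 6 libraries, at 198 against 138 CPM. Branchiomeric muscle came next at 39.5 CPM, with all libraries below those of endothelium. Its pooled value owed much to library 1, at 73.7 CPM, where the other 5 libraries had 28.6 to 35.3 CPM. Endoderm, surface ectoderm and epicardium lay between 23.6 and 26.0 CPM with overlapping libraries. Cardiomyocytes were at 3.10 CPM and erythroid cells at 0.735 CPM, with no overlap between their libraries. On the total without hemoglobin, mitochondrial and ribosomal protein genes their libraries overlapped (from 3.11 CPM in cardiomyocytes, up to 3.53 CPM in erythroid cells). In thinned cells an Igf1 UMI was seen in 51.7% of cushion cells and 42.8% of endothelial cells, against 1.41% (1.02 to 1.90) of cardiomyocytes and 0.481% (0.194 to 0.989) of erythroid cells.

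**Figure D2:**
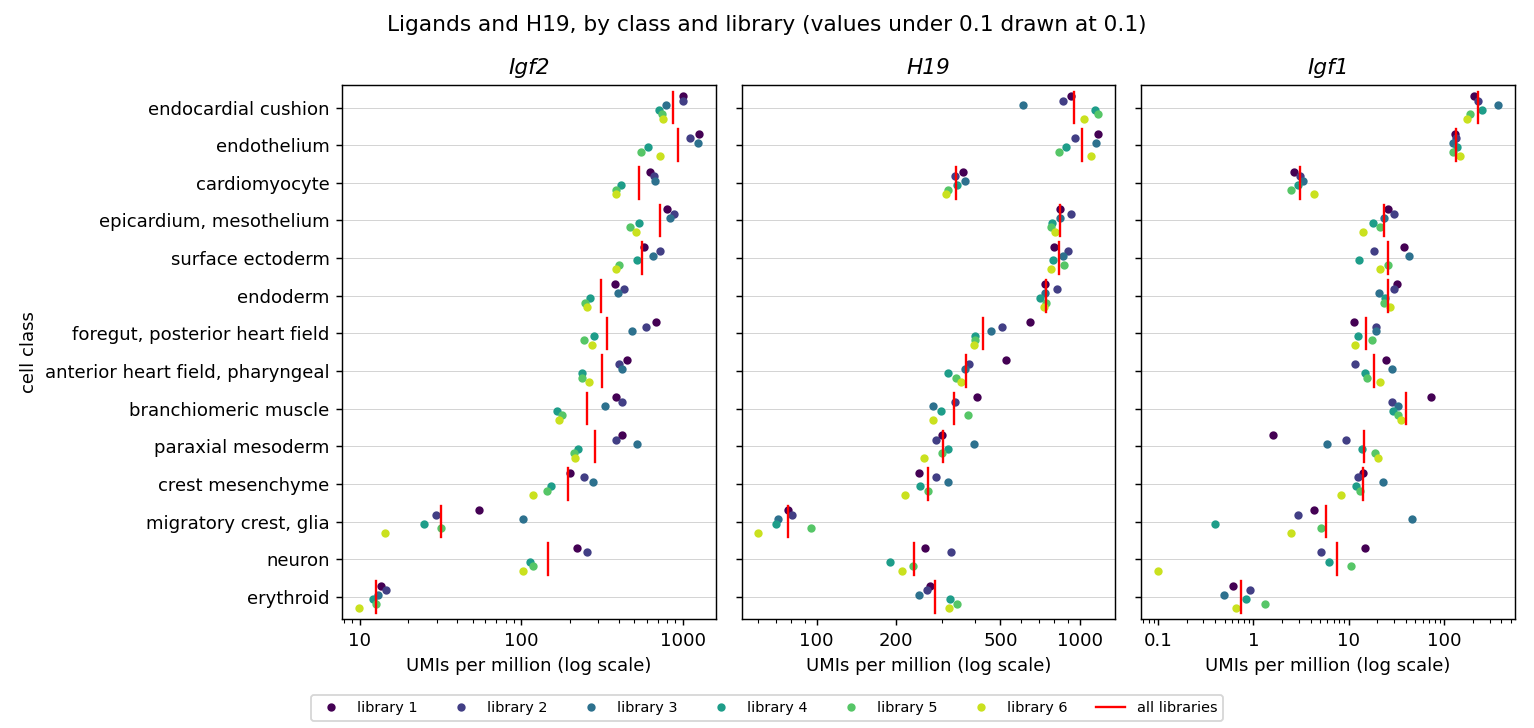
Levels of Igf2, H19 and Igf1 in CPM (log axis) in each class, with 1 point per library and a red line at the pooled level; values under 0.1 are drawn at 0.1. Igf1 is separated in cushion (175 to 364) and endothelium (124 to 147) from all other classes, and erythroid H19 (245 to 342) overlaps that of crest mesenchyme (216 to 316) on this total.

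Part of the endothelium could be divided into the lining of the heart and the vessels. Of 2133 endothelial cells, the endocardial gate (Npr3, Nfatc1, Adgrg6, Cgnl1 and Plvap) took 646 and the vascular gate 382, and 1105 entered neither, so the values below do not cover most of the class. For 6 of 10 members every endocardial library lay above every vascular one, against 19.0% of 8899 genes; these were Igf1, Igf2, H19, Igf1r, Igf2r and Igfbp5. For Igfbp3 and Igfbp4 every vascular library was the higher, as for 12.6% of genes. Insr and Igfbp2 overlapped.

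Igf2 was at 1277 CPM in endocardial cells (841, 1218 and 1747 CPM in the lowest, median and highest library). In vascular cells it was at 392 CPM (247, 417 and 603 CPM), a pooled ratio of 3.26 (95% interval 3.18 to 3.34). Libraries 1 to 6 had 1498, 1478, 1747, 884, 841 and 959 CPM in endocardial cells. In vascular cells they had 531, 559.7, 603, 302, 247 and 295 CPM. They gave unequal numbers of cells to the 2 gates, so the pooled ratio also depends on that mix, which its interval does not cover. H19 was 3.99-fold higher in endocardial cells (1392 against 349 CPM). The ratio was larger for the receptor that removes IGF2: Igf2r stood at 521 CPM (459 to 593 CPM over libraries) in endocardial and 80.1 CPM (65.9 to 96.8 CPM) in vascular cells, 6.50-fold. Igf1 was 168 CPM in endocardial and 88.2 CPM in vascular cells, while Igf1r differed least of the 6, at 142 against 110.5 CPM.

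The binding proteins split in opposite directions. Igfbp5 was at 266 CPM in endocardial cells, with libraries from 201 to 347 CPM, and at 22.3 CPM in vascular cells, with libraries from 12.9 to 56.2 CPM. The ratio was 12.0, the largest of the 10. Igfbp3 was at 17.5 CPM in endocardial cells (5.70 to 22.7 CPM) and 82.5 CPM in vascular cells (68.7 to 102 CPM). Igfbp4, which was above 400 CPM in both, was at 441 CPM in endocardial (416 to 559 CPM) and 704 CPM in vascular cells (674 to 856 CPM).

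**Figure D3:**
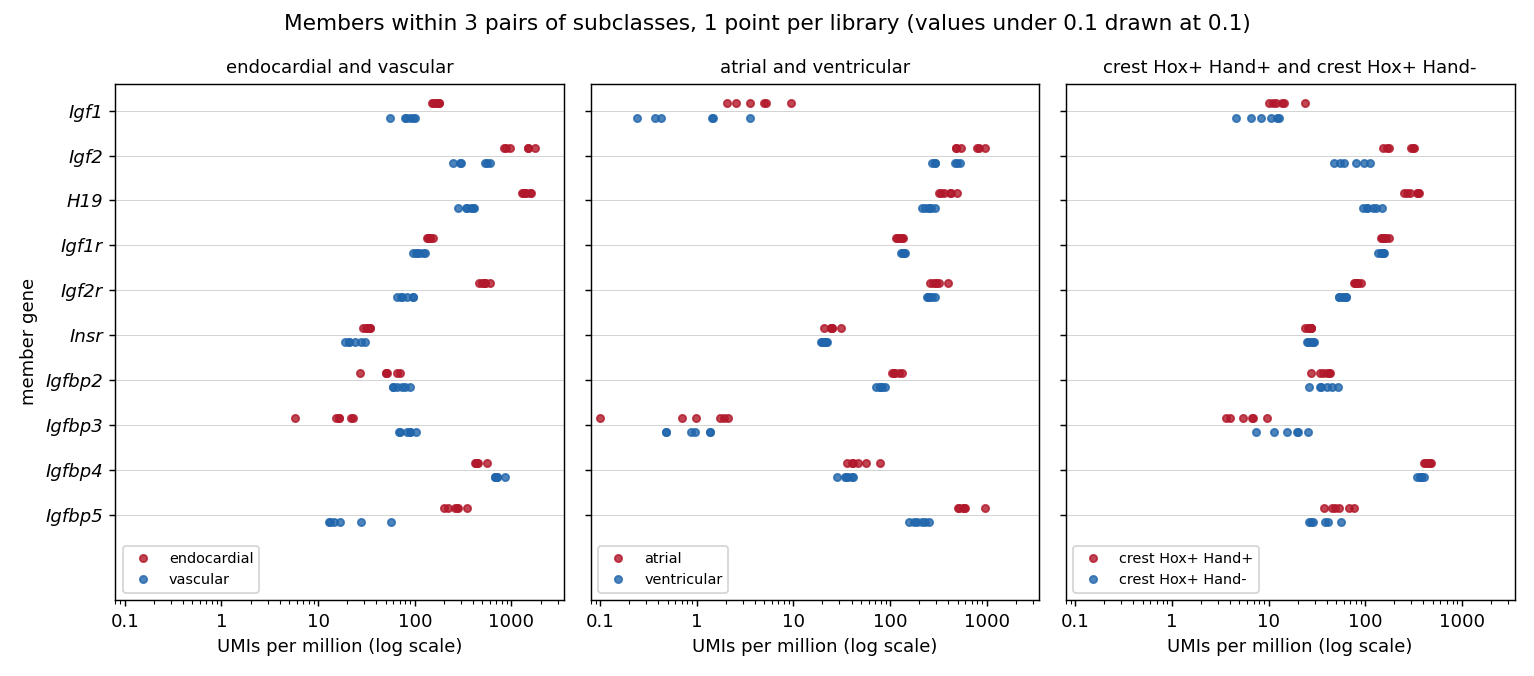
Levels of the 10 members in CPM (log axis), 1 point per library, in endocardial and vascular endothelium (left), atrial and ventricular cardiomyocytes (middle), and Hand-positive and Hand-negative cells of Hox-positive crest mesenchyme (right). Endocardial Igfbp5 (201 to 347) and Igf2r (459 to 593) stand clear of their vascular values (12.9 to 56.2 and 65.9 to 96.8), and Igfbp3 lies the other way; values under 0.1 are drawn at 0.1.

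Cardiomyocytes expressed Igf2 and Igf2r and hardly any Igf1. The atrial gate took 792 cells and the ventricular gate 1234, and 956 of 2982 entered neither. For H19, Igfbp2 and Igfbp5, 3 of the 8 members that reached 10 CPM, all atrial libraries lay above all ventricular ones, against 16.2% of 8452 genes; no member had the opposite order, against 12.9%. Igfbp5 was at 578 CPM in atrial cells (504 to 956 CPM) and 200.2 CPM in ventricular cells (159 to 252 CPM). H19 was at 377 against 254 CPM, and Igfbp2 at 117 against 80.5 CPM. Igf2 was higher in atrial cells in 6 of 6 libraries, 673 against 402 CPM, though the highest ventricular library (529.7 CPM) was above the lowest atrial one (481 CPM).

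In crest mesenchyme, the neural crest derived tissue of the pharyngeal arches, Hand1 and Hand2 mark the ventral cells and Hox genes the arches behind the first. Of 5775 cells, 1748 entered none of the 4 sets made from these genes. Among Hox-positive cells, 4 of 10 members (Igf2, H19, Igf2r and Igfbp4) had all Hand-positive libraries above all Hand-negative ones, against 6.09% of 8438 genes. The same 4 had that order among Hox-negative cells, where 9 members were tested, 4 libraries had enough cells of both kinds and the share over 8444 genes was 5.06%. For Igf2r that order was narrow: the lowest Hand-positive and the highest Hand-negative library were both 54.4 CPM to the digits given. No member had the reverse order in either comparison, where the shares of genes were 4.78% and 3.72%. Igfbp3 came nearest to it among Hox-positive cells, at 5.87 CPM with Hand genes and 17.0 CPM without. Its Hand-positive cells were higher in 0 of 6 libraries, but the library ranges overlapped. Igf2 was at 252 CPM in Hox-positive Hand-positive cells (154 to 321 CPM) and 74.3 CPM in Hox-positive Hand-negative cells (47.1 to 113 CPM), a ratio of 3.39. In Hox-negative cells it was at 416 CPM with Hand genes and 146 CPM without.

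Between the Hand-positive cells of the 2 arch groups, Igf2 and H19 were higher in Hox-negative cells, with no overlap of libraries, as were 3.02% of 8482 genes. Igf2 was at 416 CPM (339.7 to 528 CPM) against 252 CPM (154 to 321 CPM), and H19 at 574 against 319 CPM. Igf2r and Igfbp5 were higher in the Hox-positive cells, as were 4.15% of genes, at 83.2 against 61.5 CPM and 55.2 against 19.7 CPM. Igfbp4 was at 526 CPM in the Hox-negative and 448 CPM in the Hox-positive Hand-positive cells and overlapped.

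Among the receptors, Igf1r, the signalling receptor of both IGFs, was found in every class and was highest in branchiomeric muscle, the progenitors of head and arch muscles, at 403 CPM (275, 420.4 and 559.7 CPM in the lowest, median and highest library). The anterior heart field and pharyngeal mesoderm followed at 342 CPM (324, 339.5 and 366 CPM). Muscle was the higher in 5 of 6 libraries; library 5 had 275 against 366 CPM. With gates that needed 1 marker fewer the order turned, at 326 CPM in muscle and 333 CPM in the anterior class, with muscle higher in 3 of 6 libraries. All libraries of the anterior class lay above those of the third class, epicardium and mesothelium, at 275 CPM. By pooled level, epicardium and surface ectoderm (270.4 CPM) followed the first 2 classes for this receptor, as they did for Igf2. Of the first 2 classes for Igf2 and Igf1, cushion mesenchyme stood at 232 CPM and endothelium at 120.3 CPM, the lowest class but erythroid (39.2 CPM). In thinned cells 75.1% of branchiomeric muscle cells and 41.5% of endothelial cells had an Igf1r UMI, against 18.4% of erythroid cells.

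Igf2r, which takes up IGF2 for degradation, was at 362 CPM in cushion mesenchyme (336, 351 and 390.2 CPM), 349 CPM in endothelium (254, 349 and 424 CPM), 306 CPM in cardiomyocytes (286, 296 and 339 CPM) and 265 CPM in epicardium and mesothelium (218 to 315 CPM). The first 3 were not separated by their libraries, and foregut and posterior heart field mesoderm came next at 168 CPM. Surface ectoderm had 123 CPM of Igf2r. Its Igf2 level was near that of cardiomyocytes (555 and 535 CPM, higher in 3 of 6 libraries). Crest mesenchyme (65.0 CPM), paraxial mesoderm (61.0 CPM), neurons (46.2 CPM) and glia (46.0 CPM) were low, and erythroid cells had 9.18 CPM. Over the 14 classes the log2 levels of Igf2 and Igf2r had a Pearson r of 0.91, and of 0.84 without erythroid cells.

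Insr, the insulin receptor, was the flattest member. Leaving erythroid cells aside (8.03 CPM), its classes lay between 21.8 CPM in epicardium and mesothelium and 40.1 CPM in the anterior heart field and pharyngeal mesoderm, and no 2 neighbouring classes in that range had separate libraries. After thinning, its UMIs were seen in 10.6% to 19.5% of cells of these classes and in 4.13% (3.16 to 5.28) of erythroid cells. The Pearson r of its log2 levels with those of Igf1r was 0.83 over 14 classes and 0.44 without erythroid cells. Epicardium and mesothelium, the lowest of these classes for Insr, was the third for Igf1r.

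**Figure D4:**
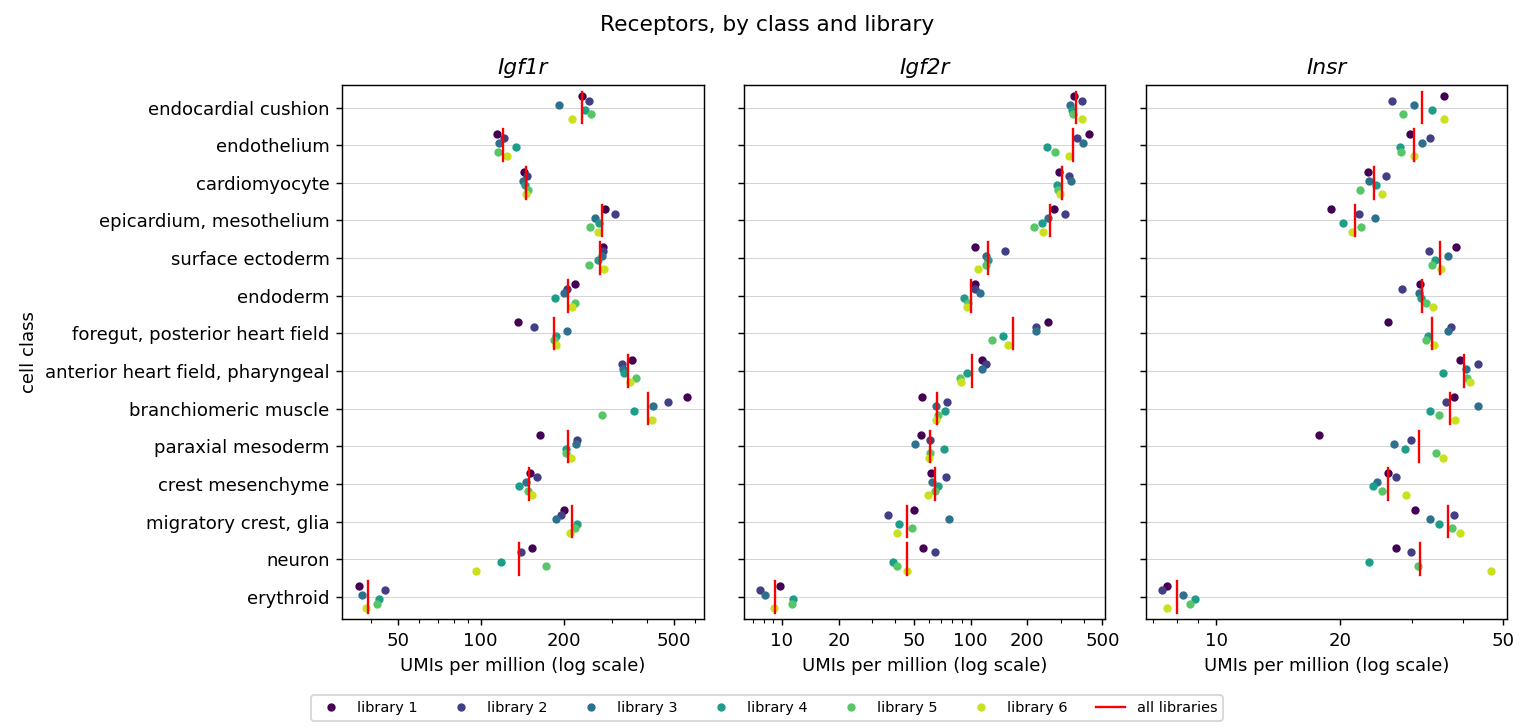
Levels of Igf1r, Igf2r and Insr in CPM (log axes that differ between panels) in each class, 1 point per library with a red line at the pooled level. Igf2r is high in cushion, endothelium, cardiomyocytes and epicardium (pooled 265 to 362), Igf1r in branchiomeric muscle and anterior mesoderm (403 and 342), and Insr spans 21.8 to 40.1 outside erythroid cells.

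Of the binding proteins among the members, Igfbp2 was the one most clearly tied to a class. It was at 891 CPM in surface ectoderm (644, 912 and 1049 CPM in the lowest, median and highest library), 371 CPM in endoderm (343, 362 and 477 CPM), 196 CPM in neurons (137, 192 and 251 CPM) and 108 CPM in foregut and posterior heart field mesoderm (89.7 to 125 CPM). Each of these steps separated all libraries. The lowest classes were crest mesenchyme (40.6 CPM), migratory crest and glia (24.6 CPM) and erythroid cells (4.46 CPM). In thinned cells 85.5% of surface ectoderm and 1.03% of erythroid cells had an Igfbp2 UMI.

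Igfbp5, encoded next to Igfbp2, was highest in the same epithelia, at 1021 CPM in surface ectoderm (806, 1036 and 1154 CPM) and 1012 CPM in endoderm (859.7, 1035 and 1178 CPM). Surface ectoderm was the higher in 3 of 6 libraries. Epithelial cells that passed neither or both of the endoderm and surface ectoderm gates, 2196 cells outside the ranking, had 1125 CPM of Igfbp5 and 474 CPM of Igfbp2. Unlike Igfbp2, Igfbp5 was also high in epicardium and mesothelium (630.1 CPM) and cardiomyocytes (453 CPM), where Igfbp2 stood at 90.7 and 77.9 CPM. All libraries of endoderm were above those of epicardium, and those of epicardium above those of cardiomyocytes. Crest mesenchyme, at 38.4 CPM, was the lowest class but erythroid (11.5 CPM), and their libraries overlapped on the total without hemoglobin, mitochondrial and ribosomal protein genes (37.2 to 73.5 and 13.4 to 55.1 CPM).

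In thinned cells, 76.8% of surface ectoderm and 57.3% of endoderm cells had UMIs of both genes, against 12.3% of cardiomyocytes, of which 51.0% had Igfbp5 alone. The shares of the single genes would give 76.5%, 56.7% and 14.9% if detection of each were independent. Neurons had the opposite bias, with Igfbp2 alone in 46.8% and Igfbp5 alone in 10.0%. The Pearson r of the log2 levels of the pair was 0.81 over 14 classes and 0.69 without erythroid cells.

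Igfbp4 was highest in endothelium at 611 CPM (582, 603 and 717 CPM), with all libraries above those of crest mesenchyme at 408 CPM (383, 414 and 427 CPM). The anterior heart field and pharyngeal mesoderm (367 CPM) and paraxial mesoderm (307 CPM) followed with overlapping libraries. Cardiomyocytes stood apart, at 46.9, 49.9 and 53.2 CPM in the lowest, median and highest library, below all other classes but erythroid. In thinned cells 90.1% of endothelial cells, 82.2% of crest mesenchyme cells and 22.1% of cardiomyocytes had an Igfbp4 UMI, against 2.20% of erythroid cells.

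Igfbp3 is the main carrier of IGFs in adult blood. Its level was 50.5 CPM in endothelium (29.6, 54.3 and 64.8 CPM), 35.5 CPM in branchiomeric muscle (15.7, 40.0 and 53.5 CPM), 28.3 CPM in the anterior heart field and pharyngeal mesoderm and 23.6 CPM in epicardium and mesothelium, with overlapping libraries from each class to the next. Endothelium was above branchiomeric muscle in 4 of 6 libraries. Cardiomyocytes had 1.25 CPM and erythroid cells 0.398 CPM, a ratio of 3.14 (2.21 to 4.57) on all UMIs, with cardiomyocytes higher in 5 of 6 libraries. In the exception, library 5, 20 of the 21 erythroid UMIs came from 3 cells. On the total without hemoglobin, mitochondrial and ribosomal protein genes the levels were 1.58 and 1.06 CPM, and the libraries overlapped. In thinned cells a UMI was seen in 0.57% (0.332 to 0.911) of cardiomyocytes and 0.138% (0.0167 to 0.496) of erythroid cells, with overlapping intervals.

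**Figure D5:**
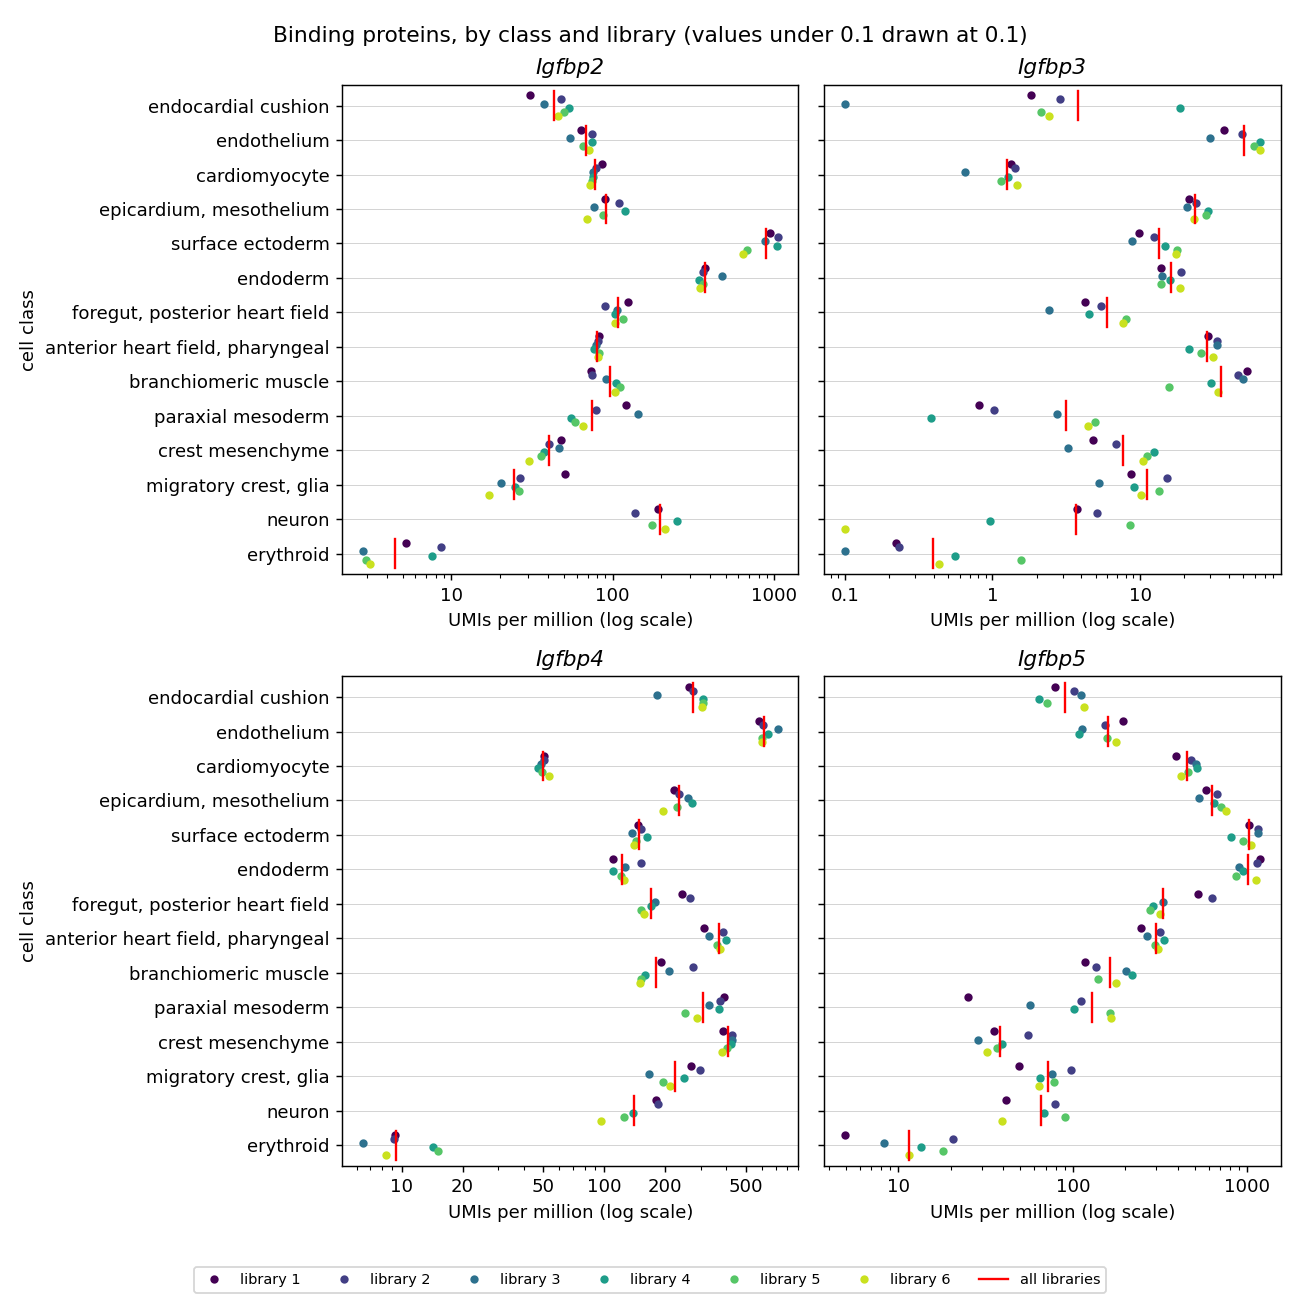
Levels of Igfbp2, Igfbp3, Igfbp4 and Igfbp5 in CPM (log axes that differ between the upper panels and the lower ones) in each class, 1 point per library with a red line at the pooled level; values under 0.1 are drawn at 0.1. Igfbp2 peaks in surface ectoderm (644 to 1049), Igfbp4 in endothelium (582 to 717) and Igfbp5 in surface ectoderm and endoderm (806 to 1178), while cardiomyocyte Igfbp4 lies between 46.9 and 53.2.

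Read by class, endocardial cushion mesenchyme and endothelium were the first 2 classes for Igf1, Igf2, H19 and Igf2r, and endothelium the first for Igfbp3 and Igfbp4. Within endothelium, the cells of the endocardial gate had 1277 CPM of Igf2, 521 CPM of Igf2r and 17.5 CPM of Igfbp3, and those of the vascular gate 392, 80.1 and 82.5 CPM. For Igf2r every endocardial library was above every cushion library (459 to 593 against 336 to 390.2 CPM). For Igf1 the endocardial and cushion libraries overlapped (152 to 179 against 175 to 364 CPM). Cushion Igf1 was the lower in library 6 and the higher in the others. Cardiomyocytes combined Igf2, Igf2r and Igfbp5 with low Igf1, Igfbp3 and Igfbp4. Branchiomeric muscle and the anterior mesoderm had the highest Igf1r. Surface ectoderm and endoderm had the highest Igfbp2 and Igfbp5, and crest mesenchyme had much Igfbp4 with little Igfbp2 and Igfbp5.

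The antisense partners of Igf2 and Igf2r had profiles like theirs. Over the 14 classes, the genes with the log2 profile most like Igf2 were Igf2os (Pearson r 0.958), Ift20 (0.958) and Gm49959 (0.956), and those most like Igf2r were Airn (0.974), Sgms1 (0.964) and Gm49959 (0.962). Igf2os was scarce, at most 20.1 CPM in epicardium and mesothelium, and its UMIs were 0.0189 of those of Igf2 over all cells. Airn was abundant, at 946 CPM in cushion mesenchyme, 901 CPM in endothelium, 721 CPM in cardiomyocytes and 31.7 CPM in erythroid cells. Its UMIs were 2.24 to 2.61 times those of Igf2r in cushion, endothelium, cardiomyocytes and epicardium and 4.17 times in crest mesenchyme. Igf2r and Airn overlap on opposite strands, so their likeness may include reads of either gene counted for the other, which was not tested.

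For the other members, the most similar profiles were Rela (0.930), Slfn9 (0.915) and Ltbp4 (0.908) for Igf1; Tmem203 (0.882), Rab27b (0.880) and Inpp5k (0.845) for H19; and Ptprd (0.939), Bbx (0.938) and Fbxl6 (0.935) for Igf1r. They were Baz2b (0.989) and Zfp160 (0.988) for Insr, Mpp7 (0.966), Firre (0.960) and Zdhhc21 (0.950) for Igfbp2, and Sh3d19 (0.852), Rps24 (0.822) and Nedd9 (0.821) for Igfbp3. For Igfbp4 they were Eva1b (0.961), Pms2 (0.957) and Cdk11b (0.956), and for Igfbp5 Dsg2 (0.939), P2ry14 (0.924) and Lypd6 (0.923). Each r is among the largest found over all genes at 10 CPM or more in some class, over 14 points that share libraries, and carries no test. These r were not recomputed without erythroid cells.

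Insulin transcripts were all but absent from the kept cells, and insulin protein was not measured. Ins1 had 1 UMI and Ins2 had 46 UMIs over all cells, and Ins2 did not exceed 0.211 CPM in any class. Of 32 other IGF and insulin pathway genes on a fixed list, 24 reached 10 CPM in some class. Of these 24, 11 had a top class that was above the second in each library (for all genes tested, 41.9%), and 11 were highest in a class that was also highest for a member (38.0% of all genes tested).

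Among whole classes, cushion mesenchyme had the highest Igf1. Its Igf2r was highest by pooled level, but not separated from endothelium and below that of the endocardial cells in every library. There the list held Igfbp7, an IGF-binding-related protein, at 266 CPM against 47.4 CPM in endothelium, and the protease Furin at 69.5 against 35.6 CPM. It also held the protease Htra1, which cleaves IGF-binding proteins, at 18.9 against 6.23 CPM in surface ectoderm. All 3 led in 6 of 6 libraries. Igfbp7 was also the leading gene of the cushion gate, although it was not one of its markers.

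In endothelium the list held Foxo1, the transcription factor that AKT keeps out of the nucleus, at 87.7 CPM against 29.2 CPM in cushion, and Stc1, an inhibitor of the IGFBP protease PAPP-A, at 12.5 against 4.96 CPM in paraxial mesoderm, both leading in 6 of 6 libraries. Akt1 (110.4 CPM), Pik3r1 (44.2 CPM) and Shc1 (33.0 CPM) were highest there too, each in 4 libraries, with 107, 43.1 and 26.6 CPM in the next class. Igf2bp3, an Igf2 mRNA-binding protein, was highest in surface ectoderm at 326 CPM against 272 CPM in endoderm in 6 of 6 libraries. Pik3ca (58.5 CPM, anterior heart field and pharyngeal mesoderm) and Igf2bp2 (191 CPM, branchiomeric muscle) led in 4 and 3 of 6 libraries.

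Over all kept cells, Igf2 varied more between libraries than the other members did. Its level was 513, 523, 448, 290.2, 272 and 269.9 CPM in libraries 1 to 6, a highest-to-lowest ratio of 1.94, and Igfbp3 followed with 1.82 (8.55 to 15.5 CPM). The median gene had 1.15. No member passed 2-fold over all cells, against 2.14% of 8796 genes, and 2 of 10 passed 1.5-fold, against 6.47%. The other ratios were 1.42 for Igf1 and Igf2r, 1.37 for Igfbp2, 1.25 for Igfbp5, 1.23 for H19, 1.20 for Igfbp4, 1.15 for Igf1r and 1.12 for Insr. Classes differed in size between libraries, so the same ratio was taken within classes.

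Within single classes the number of members past 2-fold was as follows, among those at 10 CPM or more in the class. In cardiomyocytes it was 0 of 8 (background 0.851% of genes), in endoderm 0 of 10 (2.39%), and in endothelium 2 of 10 (2.21%), Igf2 at 2.28 and Igfbp3 at 2.19. In crest mesenchyme it was 2 of 9 (1.23%), Igf1 at 2.75 and Igf2 at 2.32, and in surface ectoderm 2 of 10 (3.02%), Igf1 and Igfbp3. These 3 classes had shares of members above those of all genes, on counts of 2.

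Igf1 was the only member past 2-fold in epicardium and mesothelium (1 of 10, 2.47%), in the anterior heart field and pharyngeal mesoderm (1 of 10, 2.90%) and in cushion mesenchyme (1 of 9, 6.86%), and Igfbp5 the only one in erythroid cells (1 of 4, 1.40%). Igf2 and Igfbp5 passed in foregut and posterior heart field mesoderm (2 of 9, 6.98%) and in neurons (2 of 8, 19.6%). In each of 3 other classes 4 members passed: Igf1, Igf2, Igf1r and Igfbp3 in branchiomeric muscle (4 of 10, 11.0%), Igf1, Igf2, Igfbp2 and Igfbp5 in paraxial mesoderm (4 of 9, 19.6%), and Igf2, Igf2r, Igfbp2 and Igfbp3 in migratory crest and glia (4 of 9, 12.7%). Igf2 thus passed in 7 of the 14 classes. Igf1 passed in as many, although it was below 10 CPM, and so not counted, in some of the 14.

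In cardiomyocytes Igf2 was at 626, 662, 672, 415, 386 and 385 CPM in libraries 1 to 6, and in crest mesenchyme at 200.0, 244, 276, 153, 145 and 119 CPM. Libraries 1, 2 and 3 were the higher in both. Of 4 members with at least 10 CPM in all 13 classes that had enough cells in every library, 0 had the same 3 libraries highest in each of those classes, against 1.14% of 4808 genes. In at least 12 of the 13 classes it was 1 of 4, Igf2, against 3.00% of genes. Over all cells, libraries 1, 2 and 3 lay above libraries 4, 5 and 6 for 4 of 10 members, against 17.7% of 8796 genes. These 4 were Igf2, H19, Igf1 and Igf2r. The reverse held for 1 of 10 (Igfbp3), against 28.9%. This division was chosen on the Igf2 values, so Igf2 is among the 4 by construction. Within the 13 classes, libraries 1, 2 and 3 were highest in 3 for H19, 1 for Igf1 and 5 for Igf2r. A library was taken as far from the others by a gap to its nearest neighbour past Dixon's critical value. All cells together were counted here as a further class. Such a library was found in 9 of 135 pairs of a member and a class at 10 CPM or more (5.51% of such pairs over all genes).

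The highest-to-lowest ratio between libraries was smaller for H19 than for Igf2 over all cells and in every ranked class except cushion mesenchyme, where it was 1.93 for H19 (608 to 1172 CPM) and 1.41 for Igf2. Over all cells H19 was at 536, 523, 496, 437, 464 and 449 CPM, and within cardiomyocytes at 359, 336, 368, 343, 317 and 311 CPM. The ratio of Igf2 to H19 over all cells was accordingly 0.957, 1.00, 0.903, 0.664, 0.585 and 0.602. In cardiomyocytes it was 1.75, 1.97, 1.83, 1.21, 1.22 and 1.24. The steadiest values between libraries were those of Igf1r in cardiomyocytes (142 to 149 CPM, a ratio of 1.05), of Igfbp2 in the anterior heart field and pharyngeal mesoderm (76.3 to 82.4 CPM, 1.08) and of Igfbp4 in crest mesenchyme (383 to 427 CPM, 1.11).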

How the data were processed

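Single-cell suspensions were prepared with the 10x Genomics 3-prime kit, per the labels' protocols. The authors deposited 1 matrix of raw UMI counts for all libraries; the file header names Cell Ranger, and the submitters' processing notes list Cell Ranger 5.0.0, CASAVA 1.8, Seurat 4 and mm10, with no role given. No source used here gives the intron and strand settings. The matrix was read in Python 3.11.15 with numpy 2.4.6, scipy 1.17.1 and pandas 2.3.3. Barcodes under 2500 genes (17029) or above 10% mitochondrial UMIs (371) were removed. A marker was on in a cell with at least 1 UMI and 10% of its 99.5th centile over cells, and a class needed a set number of its markers; these numbers were set after the marker distributions were seen. The mural and neuroepithelium lists gave no class. Counts were summed per class and library and divided by their total. No file links a library to a sample, so streptozotocin was not compared with vehicle and no test between groups was run. The spread over the 6 unassigned libraries is the only measure of variation beside counting error. The labels list samples of both maternal treatments, so that spread can also hold any difference between the treatments. The named genes were all 10 members, the pathway genes highest in the same class as a member with at least 10 CPM, Ins1, Ins2, and the 3 genes most like each member by the r of log2(CPM + 1), of which 1 is not reported here. Members and lists were chosen with earlier results of these data known. Alternatives were stricter and looser gates, another cell filter, thinning to 5000 UMIs, the median library, another denominator, removal of high-UMI or shared barcodes, and each library left out. The call of a class above the next in every library was also run on simulated counts that held counting error only. Those counts had no spread between libraries, so the run cannot show how the call behaves on the real ones. Of 32285 gene identifiers, 32158 were found in GENCODE M21.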

Additional observations from a re-analysis of the deposited data

How the results depend on the processing

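The count of 3 members whose top class led in every library stayed between 2 and 4 in every alternative run. Igf1 left it with a looser gate, Igf1r entered it with a stricter gate and without library 5, and Insr entered it without library 1 or library 3; that share of all genes ran between 27.7% and 47.3%. The number of members past 2-fold between libraries over all cells was 0, and at 1.5-fold it was 2. Of the ratios of a member's first class to its second, recomputed under each alternative, 131 kept their direction and moved by less than the spread between libraries, 2 moved further and 7 turned. The order of surface ectoderm and endoderm for Igfbp5 turned with a stricter gate (0.995) and over the libraries left out in turn ran from 0.969 to 1.04; libraries 2, 3 and 5 are the ones whose removal turned it. Igf1r in branchiomeric muscle over the anterior mesoderm turned with a looser gate (0.979). Igf2r in cushion over endothelium turned with a looser gate (0.923) and without the cells of the highest 5% of UMIs (0.956). Igfbp4 in endothelium over crest mesenchyme was 1.61 with a stricter gate, and Insr in the anterior mesoderm over branchiomeric muscle was 1.32 in thinned cells. The cause was not tested. The correlations without erythroid cells and the count over at least 12 of the 13 classes were chosen after seeing the data. No paired analysis was possible because no barcode suffix is linked to a sample, so the replicate numbers of the labels cannot be placed on libraries; the replicate block, DESeq2 and unfiltered alternatives for streptozotocin against vehicle were not run for the same reason. The level of Igfbp3 in erythroid cells rests on only 39 UMIs.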

Other observations

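Over all cells, libraries 1, 2 and 3 were above libraries 4, 5 and 6 for 4 of 10 members, Igf2, H19, Igf1 and Igf2r (17.7% of 8796 genes). For Igf2, libraries 1, 2 and 3 had 513, 523 and 448 CPM and libraries 4, 5 and 6 had 290.2, 272 and 269.9 CPM. For H19 the libraries had 536, 523, 496, 437, 464 and 449 CPM, for Igf1 34.9, 32.9, 28.9, 24.6, 26.5 and 24.9 CPM, and for Igf2r 169, 177, 133, 124, 131 and 131 CPM. For Igf2, libraries 1, 2 and 3 were the 3 highest in 12 of the 13 classes with enough cells in all libraries; the exception was migratory crest and glia, at 54.7, 29.6, 103, 25.0, 31.9 and 14.3 CPM. Over the alternatives this count ran from 9 of 12 classes with a stricter gate to 13 of 13 with a looser one. For H19 it was 3 classes, for Igf2r 5, for Igf1 1 and for Insr 0. The division was chosen on Igf2, so Igf2 is among the 4 members by construction and its larger count is a description. Some set of 3 libraries was highest in at least 12 of the 13 classes for 144 of 4808 genes (3.00%), a threshold taken from the Igf2 count. It was highest in all 13 for 55 genes (1.14%), 22 of them with libraries 1, 2 and 3 and 31 with libraries 4, 5 and 6. The 2 sets held different mixes of cells. Libraries 1, 2 and 3 each held more cells of crest mesenchyme and of epicardium and mesothelium than any of libraries 4, 5 and 6. The reverse held for endoderm, neurons, migratory crest and glia, and the foregut, anterior and paraxial mesoderm classes. The 2 sets also did not overlap in the median share of mitochondrial UMIs (2.29%, 2.33% and 2.23% against 2.52%, 2.51% and 2.41%) or in the share of cells in no class (23.1%, 25.5% and 21.3% against 31.2%, 27.7% and 26.8%). They differed in the share of barcodes kept, which was 64.4%, 60.0% and 55.4% in libraries 1, 2 and 3 and 75.4%, 83.7% and 68.6% in libraries 4, 5 and 6, and in barcodes shared before filtering, where pairs among libraries 4, 5 and 6 shared 1003 to 1597 and pairs among libraries 1, 2 and 3 shared 91 to 374. Their part in these values was not tested, and no maternal treatment is assigned to either set.

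Some high values rested on few cells. Of 150 pairs of a member and a class, with all cells together counted as a further class, 12 had a library far from the others. This was judged by the gap to its nearest neighbour. Among pairs at 10 CPM or more it was 9 of 135, against 5.51% over all genes, and chance gives about 1 in 20. Igf1 in migratory crest and glia was 46.1 CPM in library 3 and 0.397 to 5.13 CPM in the others; 83.6% of its 61 UMIs there came from 3 of 31 cells. Igfbp3 in cushion mesenchyme was 18.8 CPM in library 4 and at most 2.89 CPM elsewhere, with 92.9% of 42 UMIs in 3 of 60 cells. By contrast, Igfbp2 in endoderm, at 477 CPM in library 3 and 343 to 373 CPM in the others, had UMIs in 254 of 268 cells.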
